A study of Mus musculus with 24 samples.

Results

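Gene expression in the mouse heart was compared between the hours around dusk and the hours around dawn. The dusk side was the mean of the zeitgeber times (ZT, hours after lights-on) ZT11 and ZT15, and the dawn side the mean of ZT23 and ZT03, taken by the time point in the sample titles. This used 16 of the 24 arrays of the study, 8 on each side, and the 8 arrays of ZT07 and ZT19 took no part in the contrast. All hearts came from wild-type male C57Bl/6 mice aged 8 weeks, kept in 12 h of light and 12 h of dark. The labels name the tissue myocardium, frozen at collection and extracted with TRIzol, and biotin-labelled cRNA was prepared from 500 ng of RNA for Affymetrix arrays, with 4 arrays that the labels call biological replicates at each time. Nothing else in the labels says how the hearts were sampled, so p-values measure the spread between these arrays. The labels name no batch either, and a batch shared by the arrays of a time cannot be told apart from that time.

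Each side held 1 time in the light (ZT11 at dusk, ZT03 at dawn) and 1 in the dark (ZT15 at dusk, ZT23 at dawn). The contrast was therefore balanced for lighting and asked which transcripts differ between the sides of the day on average over light and dark. It did not require a difference under both. ZT11 against ZT03 and ZT15 against ZT23 rest on separate arrays. They are the parts that the contrast averages, so neither is a second measurement of it.

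Heart cells hold their own circadian clock. CLOCK or NPAS2 pairs with BMAL1, the product of Arntl, and binds E-boxes to switch on the period, cryptochrome and REV-ERB genes and the D-box factors, and the period and cryptochrome proteins then block that pair. REV-ERB proteins repress Arntl through ROR elements, on which ROR proteins act as activators, so that Arntl is transcribed in antiphase to the E-box genes. Clock output in heart muscle reaches metabolism, ion channels and contractile proteins, and acts beside adrenal glucocorticoids, feeding, body temperature and sympathetic drive, which also follow the time of day.

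Of 22180 genes tested, 715 differed between dusk and dawn at an adjusted p below 0.05 (3.22%), of which 390 (1.76%) were higher at dusk and 325 (1.47%) higher at dawn. Most differences were modest, with a median fold of 1.22 among genes higher at dusk and 1.2 among those higher at dawn. A difference of 1.5-fold or more was reached by 35 and 22 genes, and one of 2-fold or more by 10 and 6. All 8 dusk arrays lay above all 8 dawn arrays in 100 of the genes called higher at dusk, and all lay below in 82 of those called higher at dawn. Such separation was found in 0.830% of all genes (0.455% with dusk above, 0.374% with dusk below). The test was limma's moderated test with time as a factor, and 3044 genes had an unadjusted p below 0.05. The log2 values are centred on the gene's own median of 24 arrays, so levels cannot be compared between genes, and a dim gene cannot be told from a bright one. In such whole tissue, fewer cells of a type and less RNA per cell cannot be told apart.

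The largest difference in each direction was that of a clock gene, Arntl at dawn and Dbp at dusk. Shown here are 5 promoters that carry one of the clock's elements, to place that element against the start of the gene. The sequences are RefSeq's for the mouse build GRCm38.p6, the 250 bases before an annotated start, with the E-box (CACGTG) or the D-box (TTATGTAA) in capitals. Per1, Per3 and Ciart are clock genes and were higher at dusk. Slc41a3 and Rcan1, which are not in the clock lists, were higher at dawn. The Per1 stretch is chr11:69098699-69098948 (+ strand), with an E-box whose first base lies 166 bases before the start.
Per1: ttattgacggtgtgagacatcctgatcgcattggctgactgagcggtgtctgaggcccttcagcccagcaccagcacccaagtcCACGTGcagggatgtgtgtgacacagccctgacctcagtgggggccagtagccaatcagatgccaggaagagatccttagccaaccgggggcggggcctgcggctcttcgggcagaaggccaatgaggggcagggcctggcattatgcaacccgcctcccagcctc
For Per3 it is chr4:151044666-151044915 (- strand), which carries D-boxes at 205 and 158 bases before the start.
Per3: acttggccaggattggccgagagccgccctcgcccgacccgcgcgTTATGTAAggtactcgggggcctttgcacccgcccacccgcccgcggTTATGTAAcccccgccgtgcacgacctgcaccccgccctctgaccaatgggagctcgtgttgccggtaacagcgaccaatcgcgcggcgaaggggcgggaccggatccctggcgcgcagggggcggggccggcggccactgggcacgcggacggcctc
Ciart, at chr3:95882229-95882478 (- strand), has E-boxes at 116, 58 and 44 bases before the start.
Ciart: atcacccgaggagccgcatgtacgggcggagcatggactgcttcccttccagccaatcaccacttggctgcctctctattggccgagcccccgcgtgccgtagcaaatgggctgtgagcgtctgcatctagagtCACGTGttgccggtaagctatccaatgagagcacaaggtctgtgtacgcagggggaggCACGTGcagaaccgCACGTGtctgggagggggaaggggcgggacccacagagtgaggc
The Slc41a3 stretch, chr6:90618996-90619245 (+ strand), has an E-box 213 bases before the start.
Slc41a3: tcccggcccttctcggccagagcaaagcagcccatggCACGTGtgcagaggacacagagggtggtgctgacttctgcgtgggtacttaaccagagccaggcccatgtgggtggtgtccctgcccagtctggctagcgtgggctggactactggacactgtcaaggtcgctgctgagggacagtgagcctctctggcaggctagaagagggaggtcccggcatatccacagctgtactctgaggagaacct
Rcan1, at chr16:92466170-92466419 (- strand), has an E-box 191 bases before the start.
Rcan1: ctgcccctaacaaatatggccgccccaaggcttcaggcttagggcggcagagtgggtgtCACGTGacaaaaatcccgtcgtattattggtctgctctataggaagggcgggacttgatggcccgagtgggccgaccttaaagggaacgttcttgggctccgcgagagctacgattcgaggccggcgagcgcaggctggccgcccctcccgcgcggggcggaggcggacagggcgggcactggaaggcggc
Arntl has a ROR element (ANNT followed directly by AGGTCA, in capitals) that begins at base 28 after one of its 2 annotated starts, within chr7:113207528-113207557 (+ strand).
Arntl: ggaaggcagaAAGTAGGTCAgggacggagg

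A search for 6 motifs on both strands covered 250 bases before and 50 after each start, in the 16990 tested genes that have a promoter sequence. E-boxes were present in 9.19% of those genes, in 12% of the genes higher at dusk (37 of 309) and in 11.2% of the genes higher at dawn (28 of 251). Among genes that differed by 1.5-fold or more, the E-box was found in 6 of 25 higher at dusk and 3 of 18 higher at dawn. The D-box was found in 1.01% of all promoters, in 1.29% of those higher at dusk (4 of 309) and in 0.398% of those higher at dawn (1 of 251), and in 2 of the 25 and 0 of the 18. The ROR element was found in 0.653% of all promoters, in 0 of the 309 and in 3 of the 251. A palindromic glucocorticoid element (GNACA and TGTNC, 3 bases apart) was present in 0.536% of all promoters, in 1.94% of those higher at dusk and in 1.59% of those higher at dawn. The heat shock element (GAA, TTC and GAA, each 2 bases apart) stood at 0.63%, 0.324% and 1.2% in the same order, and the cAMP element (TGACGTCA) at 2.65%, 2.91% and 3.98%. These matches describe letters in a window and do not show that a factor binds there.

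The 3 activators of the clock were all higher at dawn, 6 of its 7 measured repressors were higher at dusk, and the D-box factors split by their role. On the activator side, Arntl had the largest difference of all genes. Its dusk values ran from -1.30 to -0.93 with a median of -1.0, and its dawn values from 1.15 to 1.55 with a median of 1.38. The sides did not overlap, and the dusk-dawn difference was -2.42 ± 0.056 (SE, log2), or 5.34-fold higher at dawn (adjusted p = 7.16e-13). Clock, which encodes its usual partner, was 1.81-fold higher at dawn (-0.86 ± 0.046, adjusted p = 2.34e-08), from -0.54 to -0.10 at dusk and from 0.40 to 0.57 at dawn. Npas2, the alternative partner, was 1.73-fold higher at dawn (-0.79 ± 0.092, adjusted p = 9.12e-05), with dusk values up to 0.17 and dawn values from 0.29.

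Among the repressors, Per3 was the most evenly separated. It read from 0.43 to 1.03 at dusk (median 0.68) and from -1.07 to -0.63 at dawn (median -0.84), a difference of 1.53 ± 0.057 or 2.88-fold (adjusted p = 3.54e-10). Per1 had the larger fold, 3.03 (1.60 ± 0.175, adjusted p = 6.11e-05), but with more spread. Its dusk values ran from -0.03 to 1.33 and its dawn values from -1.48 to -0.02, so that the sides overlapped slightly. The SD of its 4 arrays at ZT03 was 0.644, against 0.185 for Per3. Ciart, a repressor of the CLOCK-BMAL1 pair, was 2.21-fold higher at dusk (1.15 ± 0.073, adjusted p = 1.50e-07), from 0.13 to 1.24 against -0.75 to -0.13. Cry2 was 1.47-fold, Bhlhe41 1.49-fold and Bhlhe40 1.32-fold higher at dusk (adjusted p = 0.000145, 0.0009 and 0.0119). The last pair encodes the E-box competitors DEC2 and DEC1.

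Cry1 was the measured repressor that did not pass. Its difference was 0.15 ± 0.056 (adjusted p = 0.201), and its 4 group means on the 2 sides were -0.38 at ZT03, -0.14 at ZT11, 0.22 at ZT15 and 0.16 at ZT23. Nr1d1, which encodes REV-ERB alpha, also missed the threshold at 0.31 ± 0.102 (adjusted p = 0.137). Its means were 0.46 at ZT03 and 0.26 at ZT11, against -0.30 at ZT15 and -1.12 at ZT23. The difference was -0.20 between ZT11 and ZT03 (adjusted p = 0.749) and 0.83 between ZT15 and ZT23 (adjusted p = 0.0101), and the test that these are unequal did not pass (adjusted p = 0.215). With the replicate number as a block, Nr1d1 was called at dusk (adjusted p = 0.0210). Cry1 was higher in the dark by 0.45 ± 0.056 (adjusted p = 0.00133), and Nr1d1 higher in the light, with a dark-light difference of -1.07 ± 0.102 (adjusted p = 0.000331).

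Nr1d2, which encodes REV-ERB beta, did differ, by 2.35-fold in favour of dusk (1.23 ± 0.071, adjusted p = 4.28e-08). It read from 0.02 to 0.84 at dusk and from -1.34 to -0.02 at dawn. Rora, the activator on the same elements, was 1.14-fold higher at dusk (adjusted p = 0.0304), a call that ended on leaving out most single arrays (11 of 16, with adjusted p as high as 0.0682). It held only on leaving out ZT03 replicate 1 or 4, ZT11 replicate 2, ZT15 replicate 1 or ZT23 replicate 2. Rorb was not called (0.03).

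The D-box activators Dbp, Tef and Hlf were higher at dusk, and Nfil3, which represses through the same element, was higher at dawn. Dbp had the largest dusk difference of all genes. Its values ran from 0.21 to 1.32 at dusk (median 0.83) and from -1.2 to -0.76 at dawn (median -1.14), or 3.61-fold (1.85 ± 0.083, adjusted p = 2.98e-09). Hlf was 1.62-fold higher at dusk (0.70 ± 0.061, adjusted p = 5.32e-06). Tef was 1.41-fold higher (0.50 ± 0.043, adjusted p = 5.32e-06) as the mean of 2 probe sets that disagreed, at 0.90 and 0.10 (adjusted p = 2.11e-06 and 0.378). Nfil3 was 1.38-fold higher at dawn (-0.47 ± 0.055, adjusted p = 0.000103), with overlapping sides from -0.61 to 0.18 and from -0.02 to 0.46. Usp2, a ubiquitin protease that acts on clock proteins, was 1.89-fold higher at dusk (0.91 ± 0.058, adjusted p = 1.45e-07), from 0.24 to 0.48 against -0.99 to -0.26.

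**Figure D1:**
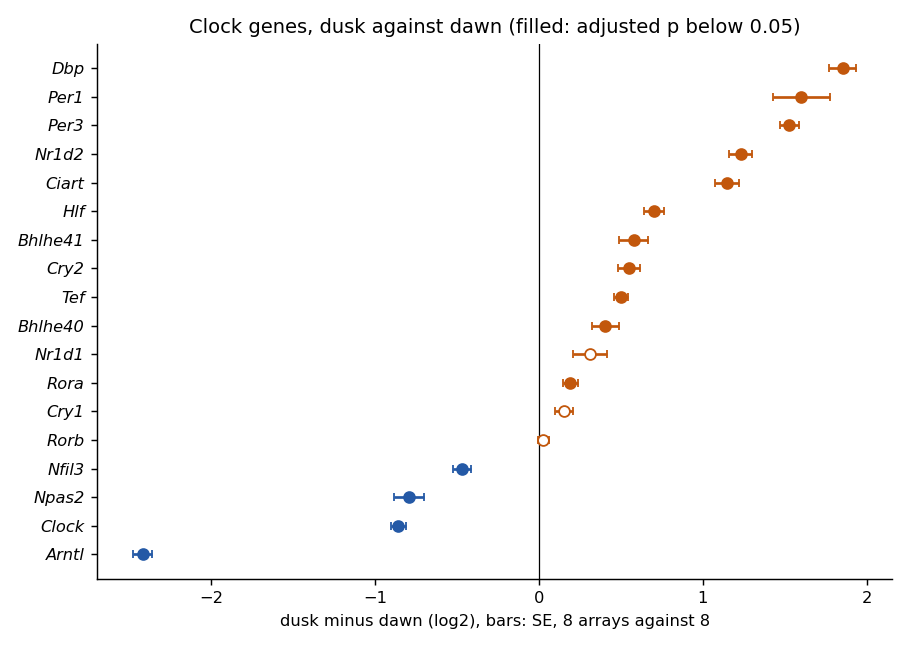
Difference between dusk and dawn (x axis, log2) of the measured clock activators, repressors, nuclear receptors and D-box factors (y axis), with bars for the SE over 8 arrays against 8 and filled points for an adjusted p below 0.05. Arntl stands at -2.42 and Dbp at 1.85, and Nr1d1, Cry1 and Rorb are the open points.

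Outside the clock, the largest dusk genes were Zbtb16, Mt2, Tcap, Rhobtb1 and Timp3. Zbtb16, a zinc finger repressor induced by glucocorticoids, read from 0.39 to 1.16 at dusk (median 1.03) and from -1.08 to 0.08 at dawn (median -0.81). It was 3.09-fold higher at dusk (1.63 ± 0.121, adjusted p = 9.0e-07). The sides did not overlap, although its dawn times differed from each other, at -1.02 ± 0.075 (SD, n = 4) for ZT03 and -0.35 ± 0.35 for ZT23. Tcap encodes telethonin, a small protein of the Z-disc that caps titin. Its values lay between 0.21 and 0.83 at dusk and between -1.26 and -0.29 at dawn, or 2.64-fold higher at dusk (1.40 ± 0.072, adjusted p = 1.36e-08).

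Rhobtb1 was 2.27-fold higher at dusk (1.18 ± 0.077, adjusted p = 1.69e-07), from 0.26 to 0.93 against -0.84 to -0.33. Coq10b, which helps coenzyme Q work in the respiratory chain, was 1.81-fold higher at dusk (0.85 ± 0.098, adjusted p = 8.33e-05), and its highest dawn value, -0.24, lay under its lowest dusk value of -0.10. Fmo2, a flavin monooxygenase, was 1.88-fold higher at dusk (0.91 ± 0.082, adjusted p = 8.14e-06), from 0.10 to 1.02 against -0.58 to -0.10. Wee1, a kinase that holds back entry into mitosis and a known E-box target, was 1.97-fold higher at dusk (0.98 ± 0.112, adjusted p = 8.23e-05), with 1 side reaching down to -0.01 and the other up to 0.06.

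At dawn, Arntl was followed by Slc41a3, Nppb, Spon2, Rcan1 and Rrad. Slc41a3, a mitochondrial magnesium transporter, read from -1.12 to -0.42 at dusk and from 0.16 to 0.71 at dawn, or 2.39-fold higher at dawn (-1.26 ± 0.057, adjusted p = 3.13e-09). Rcan1, an inhibitor of the phosphatase calcineurin and itself a calcineurin target, read from -0.90 to -0.48 at dusk (median -0.57) and from 0.30 to 0.77 at dawn (median 0.53). Its sides stood well apart, and it was 2.25-fold higher at dawn (-1.17 ± 0.052, adjusted p = 2.98e-09).

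Nppb encodes brain natriuretic peptide, which heart muscle releases under stretch. It ranged from -1.40 to -0.04 at dusk and from 0.22 to 1.02 at dawn, or 2.35-fold higher at dawn (-1.23 ± 0.148, adjusted p = 0.000118), with wide replicate spread but no overlap. Spon2, a secreted matrix protein, read at most 0.03 at dusk and at least 0.69 at dawn, or 2.27-fold higher at dawn (-1.18 ± 0.079, adjusted p = 2.56e-07). Rrad, a small GTPase that restrains the L-type calcium channel, was 2.02-fold higher at dawn (-1.02 ± 0.124, adjusted p = 0.000134), and its sides overlapped, with dusk values up to -0.06 and dawn values down to -0.20.

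Further down the dawn list stood a receptor kinase, the iron importer and a pair of transcription factors. Epha4, an ephrin receptor, was 1.92-fold higher at dawn (-0.94 ± 0.053, adjusted p = 3.45e-08), from -0.86 to -0.51 against 0.08 to 0.44. Tfrc, the transferrin receptor that brings iron into cells, was 1.76-fold higher at dawn (-0.82 ± 0.089, adjusted p = 6.20e-05), with sides that overlapped. Sox4 and Prox1 were 1.67-fold and 1.66-fold higher at dawn (-0.74 ± 0.047 and -0.73 ± 0.054, adjusted p = 1.45e-07 and 8.24e-07), and neither overlapped. Klhdc8a and Trp53i11 completed the 15 largest, at 1.63-fold and 1.82-fold (adjusted p = 1.58e-06 and 7.15e-05).

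**Figure D2:**
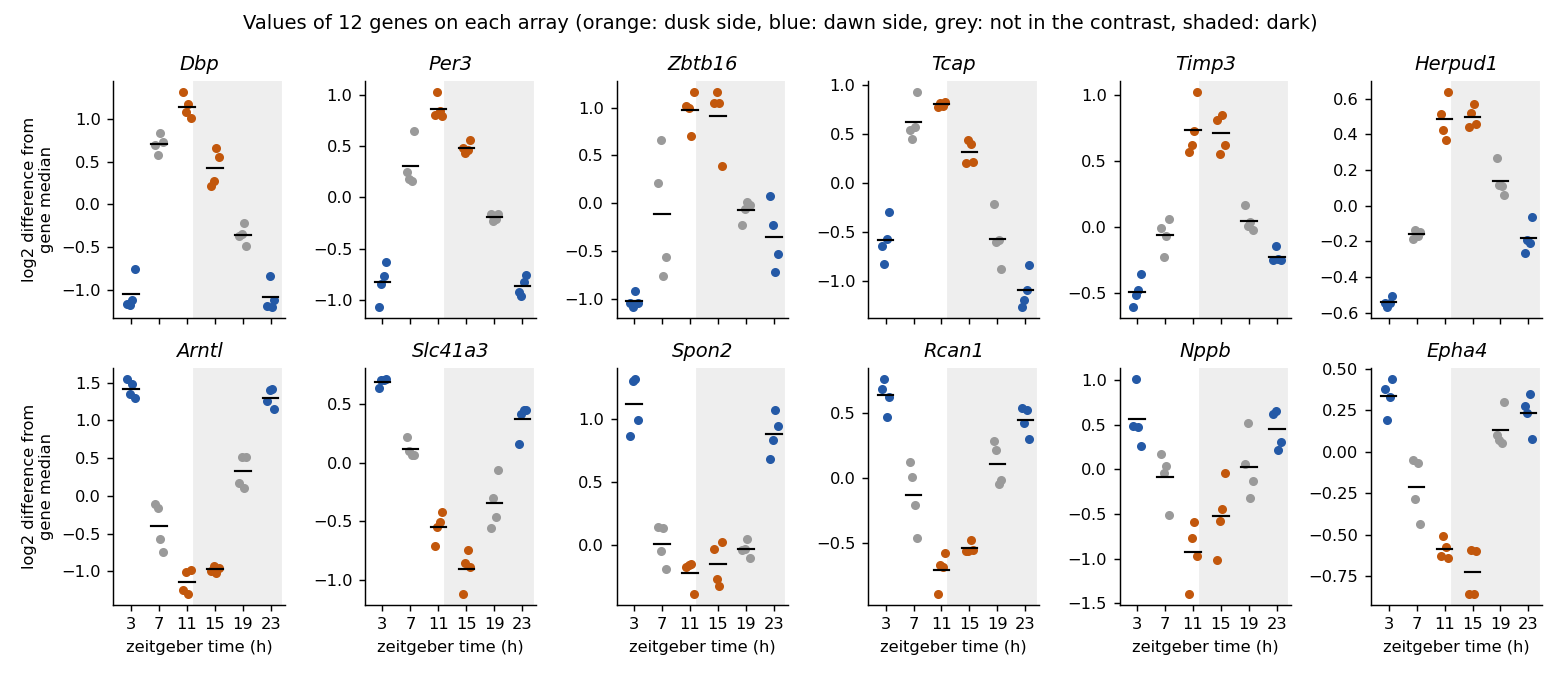
Values of 6 genes higher at dusk (upper row) and 6 higher at dawn (lower row) on each of the 24 arrays (y axis, log2 difference from the gene's median) by zeitgeber time (x axis, h), with short lines for group means, orange for the dusk side, blue for the dawn side, grey for the times outside the contrast and shading for the dark. Within each panel the orange and blue points do not overlap, as for Arntl, at -0.93 or less against 1.15 or more.

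Genes known to respond to glucocorticoids were mostly higher at dusk. Of 26 measured, 14 were called higher at dusk and 1 at dawn, against 1.76% and 1.47% of all genes, and the median difference was 0.38 against 0.00 over all genes. Zbtb16, Per1 and the metallothionein Mt2 led the list. Mt2, a metal-binding protein also induced by zinc, was 2.84-fold higher at dusk (1.51 ± 0.162, adjusted p = 5.27e-05), from 0.32 to 1.47 against -1.21 to 0.10. Fkbp5, a chaperone that restrains the glucocorticoid receptor, was 1.53-fold higher (0.61 ± 0.070, adjusted p = 8.83e-05), and Tsc22d3, the leucine zipper protein GILZ, 1.39-fold (0.48 ± 0.068, adjusted p = 0.000617). Pik3r1, the regulatory subunit of PI3-kinase, was 1.47-fold higher (0.56 ± 0.061, adjusted p = 5.49e-05), and Map3k6, Fam107a, Arrdc2, Mt1, Foxo3 and Hif3a between 1.14-fold and 1.36-fold. Fam107a was not called with probe sets tested singly (adjusted p = 0.307, the median of its probe sets). Cdkn1a, the cell cycle inhibitor p21, was the member higher at dawn, by 1.54-fold (-0.62 ± 0.089, adjusted p = 0.00064), while 11 members were not called. Several of these genes are also clock targets or stand in other lists here, and hormone levels were not analysed here. Without ZT03 replicate 2 the dawn count was 3, and without ZT15 replicate 4 or ZT23 replicate 4 it was 2.

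Of 12 Kruppel-like factors measured, 4 were higher at dusk and 0 were higher at dawn, beside 1.76% and 1.47% of all genes, with a median of 0.17. Klf9 was 1.44-fold higher at dusk (0.53 ± 0.059, adjusted p = 7.08e-05), from -0.06 to 0.70 against -0.44 to 0.00. Klf15, a regulator of lipid and amino acid use in the heart, was 1.33-fold higher (0.41 ± 0.075, adjusted p = 0.00469), and Klf13 and Klf6 were both 1.23-fold higher (adjusted p = 0.0136 and 0.0175).

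Protein folding genes divided between the sides. In the endoplasmic reticulum list, 5 of 26 measured members were higher at dawn and 2 at dusk, beside 1.47% and 1.76% of all genes, with a median of -0.08. The chaperone Hspa5 was 1.2-fold higher at dawn (-0.26 ± 0.040, adjusted p = 0.00111), and the disulfide isomerase Pdia3 1.21-fold (-0.28 ± 0.048, adjusted p = 0.00291). Hyou1, Manf and the stress sensor Atf6 were 1.15-fold to 1.23-fold higher at dawn. Herpud1, which serves the removal of misfolded proteins from that compartment, went the other way and far more strongly. Its values ran from 0.37 to 0.64 at dusk and from -0.57 to -0.06 at dawn, or 1.81-fold higher at dusk (0.85 ± 0.040, adjusted p = 3.27e-09). Ddit3, the stress factor CHOP, was 1.24-fold higher at dusk (adjusted p = 0.00904). The dawn count was 3 without ZT03 replicate 1 or 2, ZT11 replicate 2 or 3, or ZT23 replicate 4. Of 22 cytosolic heat shock genes, Dnajb4 was higher at dusk (0.24 ± 0.060, adjusted p = 0.0365) and Stip1 at dawn (-0.21 ± 0.051, adjusted p = 0.0345), 1 each way beside the same shares of all genes. Leaving out any 1 of 11 arrays ended the first call (adjusted p up to 0.0781), and any 1 of 9 arrays the second (up to 0.0782).

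Genes of fuel use changed in small groups within pathways whose other members were not called. Of 23 measured genes of triglyceride synthesis and lipolysis, 4 were higher at dusk and 1 at dawn, beside 1.76% and 1.47% of all genes, with a median of 0.03. Dgat2, which makes the last step to triglyceride, read from 0.18 to 0.48 at dusk and from -0.59 to -0.04 at dawn, or 1.54-fold higher (0.62 ± 0.061, adjusted p = 1.89e-05). Gpam, the first step of the same route, was 1.31-fold higher (0.39 ± 0.054, adjusted p = 0.000504), as was Gpihbp1, which carries lipoprotein lipase to the capillary wall (0.39 ± 0.063, adjusted p = 0.00178), and Plin4, a coat protein of lipid droplets, was 1.2-fold higher (adjusted p = 0.0314). Lpin1, the phosphatase between these steps, was 1.26-fold higher at dawn (-0.33 ± 0.043, adjusted p = 0.000256). Lpin1 was the member called at dawn, and the dawn count was 2 or 3 without ZT03 replicate 1 or 2, ZT11 replicate 4, ZT15 replicate 4 or ZT23 replicate 4.

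In the glucose list, 4 of 23 measured members were higher at dawn and 2 at dusk, beside 1.47% and 1.76% of all genes, with a median of 0.01. Txnip, which restrains glucose uptake, was 1.54-fold higher at dawn (-0.63 ± 0.113, adjusted p = 0.00443), but its sides overlapped widely, from -0.62 to 0.03 against -0.57 to 1.58. The insulin-regulated Tbc1d4, the kinase-phosphatase Pfkfb2 and the phosphofructokinase Pfkp were 1.15-fold to 1.23-fold higher at dawn. Pfkfb3 and the transporter Slc2a1 were 1.2-fold and 1.09-fold higher at dusk (adjusted p = 0.0146 and 0.0392), and the dusk count was 1 without any 1 of 12 of the 16 arrays. Of these, Pfkfb3 missed the threshold without ZT15 replicate 1 and ZT23 replicate 4 (adjusted p = 0.0552), the 2 arrays of widest spread. Among 16 glycogen genes, Stbd1, which tethers glycogen, was 1.24-fold higher at dusk and Ppp1r3c, which targets a phosphatase to glycogen, 1.36-fold higher at dawn (adjusted p = 0.00928 and 0.00396). That is 1 each way, beside the same shares of all genes. The dusk count of that list was 2 without ZT03 replicate 1 or 4, ZT15 replicate 1, ZT23 replicate 1 or the 2 arrays of widest spread, and 3 with all 24 arrays, where Ppp1r3a and Ppp1r3b were called as well (adjusted p = 0.0232 and 0.0298). Pdk4, the kinase that shuts off pyruvate oxidation, stood just outside the threshold at -0.60 ± 0.160 (adjusted p = 0.0566), and passed it without ZT03 replicate 2 or ZT15 replicate 4 (down to 0.0136) and in 5 further settings.

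Several energy pathways and the ribosomal proteins showed no called member in either direction. This held for 23 genes of fatty acid uptake and oxidation (median 0.01) and 16 of the tricarboxylic acid cycle (-0.01). It also held for 66 of the respiratory chain and ATP synthase (0.01) and for 63 ribosomal protein genes (0.02). Over all genes 3.22% were called, so lists of this size would hold few called members in any case. The differences of the respiratory chain genes lay between -0.11 and 0.13. Without single arrays, 1 member each of the fatty acid, respiratory chain and ribosomal lists was called: Slc27a1 without ZT11 replicate 1 or ZT23 replicate 1 (adjusted p down to 0.0138), Cox6a2 without ZT03 replicate 1 (0.0350) and Rpl38 without ZT11 replicate 1 (0.0349). In the list of PPAR and ERR regulators, Ppara was 1.17-fold higher at dusk (0.22 ± 0.042, adjusted p = 0.00662), and Rxrg 1.17-fold higher at dawn (-0.23 ± 0.044, adjusted p = 0.00744). In the sterol list, Hmgcs1, an early enzyme of cholesterol synthesis, was 1.25-fold higher at dawn (-0.32 ± 0.037, adjusted p = 0.000103), from -0.33 to -0.14 at dusk and from -0.07 to 0.22 at dawn.

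In insulin signalling, 3 of 28 measured members were higher at dusk and 1 at dawn, beside 1.76% and 1.47% of all genes. Pik3r1 stood beside Eif4ebp1, which holds back translation (0.40 ± 0.049, 1.32-fold, adjusted p = 0.000126), and the transcription factor Foxo3 (0.39 ± 0.061, 1.31-fold, adjusted p = 0.0015). Irs1, the adaptor of the insulin receptor, was 1.32-fold higher at dawn (-0.40 ± 0.047, adjusted p = 9.77e-05), and both of its probe sets had that direction, at -0.25 and -0.55. The dawn count was 2 without ZT11 replicate 3, ZT15 replicate 4 or ZT23 replicate 1.

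Of 30 NAD and redox genes measured, 5 were called higher at dusk and 0 at dawn, beside 1.76% and 1.47% of all genes, while the median of the list was 0.01. Nfe2l2, which encodes the stress factor NRF2, was 1.23-fold higher (0.30 ± 0.040, adjusted p = 0.000295), from 0.10 to 0.35 against -0.26 to 0.02. Hmox1, Gclm and Gsta3 were 1.26-fold, 1.2-fold and 1.24-fold higher, and Nampt, the enzyme that salvages nicotinamide to NAD, 1.22-fold (adjusted p between 0.00172 and 0.0195). The Gsta3 call was lost without ZT15 replicate 1 and ZT23 replicate 4 together (adjusted p = 0.0647). In the autophagy and atrophy list, Sqstm1, Fbxo21 and Foxo3 of 25 were higher at dusk, by 1.31-fold, 1.19-fold and 1.31-fold, and the ubiquitin ligase Trim63 was 1.18-fold higher at dawn (adjusted p = 0.0202). The Trim63 call was lost without ZT15 replicate 1 and ZT23 replicate 4 together (adjusted p = 0.0629).

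Of 24 Z-disc and stretch-sensing genes, 1 was called at dusk and 2 at dawn, beside 1.76% and 1.47% of all genes. Tcap was higher at dusk, and Ankrd23 and Nexn higher at dawn. Ankrd23, a titin-binding ankyrin repeat protein, was 1.89-fold higher at dawn (-0.92 ± 0.092, adjusted p = 2.79e-05), from -1.02 to -0.25 against -0.02 to 0.82. Nexn, an actin-binding Z-disc protein, was 1.2-fold higher at dawn (-0.27 ± 0.041, adjusted p = 0.00114), from -0.31 to -0.02 against 0.02 to 0.21. Without ZT03 replicate 2 or ZT15 replicate 1 the dusk count of that list was 2. Of 19 thick and thin filament genes, 1 was called (5.26%), beside 3.22% of all genes. It was the actin nucleator Lmod2, 1.18-fold higher at dusk (adjusted p = 0.0133).

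In the list of natriuretic peptides and growth signalling, 2 of 20 measured members were higher at dawn, beside 1.47% of all genes. They were Nppb and Rcan1. The natriuretic peptide receptor Npr2 was 1.13-fold higher at dusk (adjusted p = 0.00639), where 1.76% of all genes were called. Without ZT15 replicate 4 the dawn count was 4. Of 27 genes of calcium handling and adrenergic signalling, 4 were higher at dawn and 1 at dusk, beside the same shares of all genes, with a median of -0.02. Beside Rrad these were the cyclic nucleotide phosphodiesterases Pde3a (1.34-fold, -0.42 ± 0.058, adjusted p = 0.000477) and Pde4b (1.11-fold, adjusted p = 0.0483) and the sodium-calcium exchanger Slc8a1 (1.17-fold, -0.23 ± 0.038, adjusted p = 0.00187). Adcy6, the main adenylyl cyclase of heart muscle, was 1.28-fold higher at dusk (0.36 ± 0.078, adjusted p = 0.0172), a call lost without ZT15 replicate 1 and ZT23 replicate 4 together (0.0647).

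Gja1, the connexin of ventricular gap junctions, was 1.56-fold higher at dawn (-0.64 ± 0.069, adjusted p = 5.49e-05). Its values lay between -0.70 and -0.18 at dusk and between 0.03 and 0.46 at dawn, without overlap. It was the member called at dawn among 22 ion channel and connexin genes, and 1 was called at dusk, beside 1.47% and 1.76% of all genes. The potassium channel Kcna5 was called at dusk (0.29 ± 0.074, adjusted p = 0.0437), and that call was lost without any 1 of 11 arrays (up to 0.0932).

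Of 15 measured metalloproteinases and inhibitors, 5 were higher at dusk and 2 at dawn, beside 1.76% and 1.47% of all genes, while the median was 0.01. Timp3, an inhibitor bound to the matrix, read from 0.56 to 1.02 at dusk and from -0.60 to -0.14 at dawn, a 2.11-fold difference (1.08 ± 0.064, adjusted p = 6.11e-08). Timp4 was 1.70-fold higher at dusk (0.76 ± 0.102, adjusted p = 0.000325), with 1 side from -0.03 and the other up to 0.03. Adamts1, a protease of the same list, was 1.36-fold higher at dusk (adjusted p = 0.00187), and the inhibitors Timp2 and Reck were 1.15-fold and 1.16-fold higher (adjusted p = 0.0292 and 0.0410).

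The membrane protease Mmp14 was 1.40-fold higher at dawn (-0.49 ± 0.063, adjusted p = 0.000256), from -0.44 to -0.04 against 0.04 to 0.50, and Adamts4 was 1.14-fold higher at dawn (adjusted p = 0.0297). The dusk count of that list was 3 without any 1 of ZT03 replicates 1 and 2, ZT11 replicates 2 and 3, ZT15 replicate 3 and ZT23 replicates 1 and 2. Its dawn count was 1 without any 1 of ZT03 replicates 1 and 2, ZT11 replicates 3 and 4, ZT15 replicates 1, 2 and 3 and ZT23 replicate 1. Of 14 collagens, only Col15a1 was called, at dawn (-0.17 ± 0.040, adjusted p = 0.0238), beside 1.47% of all genes. That call was lost without ZT03 replicate 4, ZT15 replicate 3 or ZT23 replicate 2 (up to 0.0534). Tgfbr3, a co-receptor for TGF-beta, was 1.28-fold higher at dusk (0.36 ± 0.056, adjusted p = 0.00148).

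Receptors and ligands of the vessel wall were found on both sides. Of 24 vascular genes, 4 were higher at dawn and 2 at dusk, beside 1.47% and 1.76% of all genes, with a median of -0.01. The VEGF receptors opposed each other: Kdr was 1.46-fold higher at dawn (-0.55 ± 0.053, adjusted p = 1.64e-05), from -0.47 to -0.16 against 0.04 to 0.47, and Flt1 was 1.31-fold higher at dusk (0.39 ± 0.047, adjusted p = 0.000127), from 0.06 to 0.57 against -0.22 to -0.04. Neither of the receptors overlapped between the sides. Their ligand Vegfa was 1.21-fold higher at dawn (-0.27 ± 0.034, adjusted p = 0.000192), as were Angpt1 (1.37-fold) and the apelin receptor Aplnr (1.32-fold). Ace, the angiotensin-converting enzyme, was 1.27-fold higher at dusk (0.35 ± 0.042, adjusted p = 0.000127).

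The oxygen-sensing factors also divided. Hif1a was 1.25-fold higher at dawn (-0.32 ± 0.035, adjusted p = 6.63e-05), with probe sets at -0.49 and -0.15 (adjusted p = 7.86e-06 and 0.0946). Epas1, which encodes HIF-2 alpha, was 1.15-fold higher at dusk (0.20 ± 0.034, adjusted p = 0.00327), and Hif3a 1.14-fold (adjusted p = 0.0330). Of 14 genes in that list, 3 were higher at dusk and 2 at dawn, beside 1.76% and 1.47% of all genes.

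Of 22 immediate early genes, Ier3 was 1.62-fold higher at dusk (0.69 ± 0.074, adjusted p = 5.18e-05), and Egr1 1.32-fold higher at dawn (-0.40 ± 0.084, adjusted p = 0.0132). Without ZT03 replicate 4 or ZT11 replicate 1 the dusk count was 2. For these genes and the lists that follow, 1.76% of all genes were called at dusk and 1.47% at dawn. Of 28 genes of the cell cycle and of p53, Wee1 and Ccnd1 were higher at dusk, the latter, which encodes cyclin D1, by 1.32-fold (0.40 ± 0.080, adjusted p = 0.0084), and Cdkn1a higher at dawn. Dusp7 was 1.35-fold higher at dusk (adjusted p = 0.00134) among 13 dual-specificity phosphatases. No member of the 24 interferon and inflammatory genes was called, except Nfkbia when ZT11 replicate 1 was left out (adjusted p = 0.0166) or all 24 arrays entered the fit (0.0378).

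Several calls did not hold on leaving out single arrays. The list counts below stand beside 1.76% of all genes called at dusk and 1.47% at dawn. Among members named above, the calls of Manf, Adamts4, Plin4, Pfkp, Timp2, Arrdc2, Hif3a, Atf6, Slc2a1, Reck and Pde4b were each lost on leaving out any 1 of 5 (Manf) to 14 (Pde4b) arrays. Of 18 genes of branched-chain amino acid breakdown, Ppm1k was higher at dusk (0.13 ± 0.032, adjusted p = 0.0314), a call lost without any 1 of 10 arrays (up to 0.0710). Mpc1, a subunit of the mitochondrial pyruvate carrier and the called member of 11 pyruvate dehydrogenase genes, was higher at dusk (0.15 ± 0.034, adjusted p = 0.0220), but not without ZT03 replicate 1 or ZT11 replicate 2 (up to 0.0521). It was also not called with all 24 arrays in the fit (adjusted p = 0.174) or with probe sets tested singly (0.231), where its probe sets stood at 0.11 and 0.19 (adjusted p = 0.406 and 0.0553). Of 19 sterol and fatty acid genes, Hmgcs1 and Insig1 were higher at dawn and Fdft1 at dusk. Insig1 was not called without any 1 of 7 arrays (up to 0.0743), nor Fdft1 without ZT11 replicate 2 or ZT23 replicate 2 (up to 0.0549).

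Of 16 regulators of the PPAR and ERR families, Esrrg was called at dawn beside Rxrg, but not without ZT03 replicate 2 or 4, ZT15 replicate 3 or ZT23 replicate 2 (up to 0.0551). Dusp16 lost its dusk call without any 1 of 10 arrays (up to 0.0922), and Loxl1, a collagen cross-linking enzyme and with Spon2 the dawn member of 18 other matrix genes, without any 1 of 6 (up to 0.0643). Of 26 splicing genes, 3.85% were called, against 3.22% of all genes. Rbm24, a muscle splicing factor, was 1.19-fold higher at dusk (adjusted p = 0.0184), and lost that call without ZT15 replicate 1 and ZT23 replicate 4 together (0.0668). Of 8 metallothioneins and zinc transporters, Mt1 and Mt2 were higher at dusk and Slc39a10, a zinc importer, 1.2-fold higher at dawn (adjusted p = 0.0084). Cirbp, the measured cold-inducible RNA-binding gene, was not called (0.17 ± 0.045, adjusted p = 0.0583), but was without ZT11 replicate 1 or ZT15 replicate 4 (down to 0.00362).

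**Figure D3:**
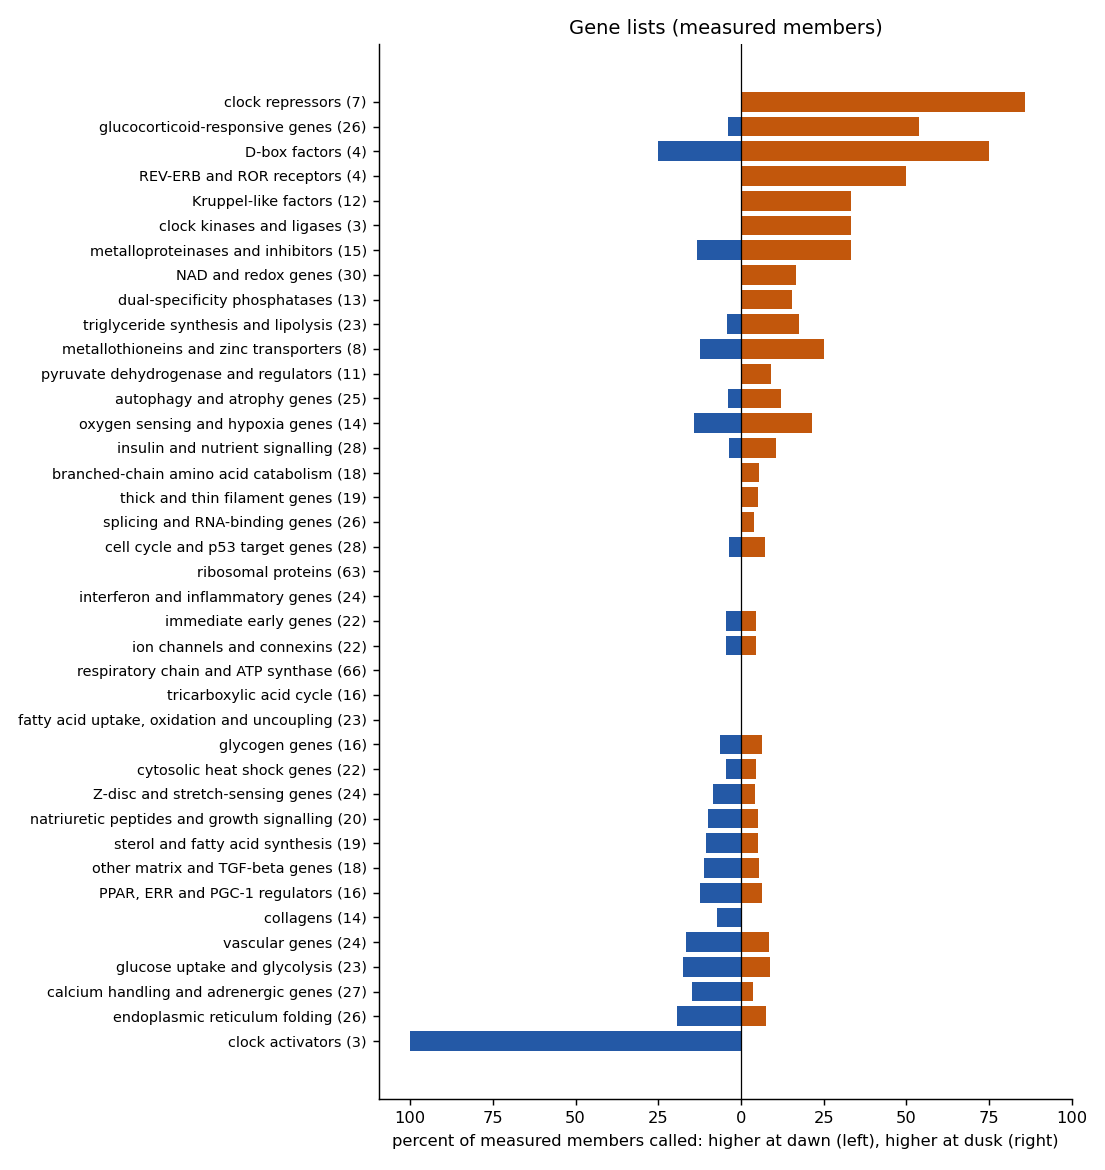
Percent of the measured members of each gene list (y axis, number measured in brackets) that were called higher at dusk (bars to the right) or at dawn (bars to the left). Clock activators reach 100% on the dawn side, and of the longer lists the glucocorticoid-responsive genes reach furthest to the right, with 14 of 26.

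Most lists of cell type markers had no called member with all 16 arrays. Over all genes 3.22% were called, so lists this short would mostly hold none. The counts do not show the mix of cells. None of the markers of ventricular (12 measured) or atrial (8) cardiomyocytes, fibroblasts (12), smooth muscle and pericytes (10), neutrophils (11), lymphocytes (8), platelets (8), skeletal muscle (10) or lung (8) were called, nor was the single red cell marker. On leaving out single arrays, 1 marker was called in 4 of these lists. They were Cox6a2 of the ventricular list (ZT03 replicate 1, adjusted p = 0.0350), Gsn of the fibroblasts (ZT15 replicate 4, 0.0167), Notch3 of smooth muscle (ZT03 replicate 3, 0.0102) and, at dawn, Gp9 of platelets (ZT15 replicate 1, 0.0458). Gsn was also called with all 24 arrays (adjusted p = 0.0436). The mean of the ventricular markers lay between -0.08 and 0.06 on the dusk arrays and between -0.06 and 0.01 on the dawn arrays. The mean of the platelet markers ranged from -0.22 to 0.88 and from -0.18 to 0.48. Because the values are centred, they cannot show whether the defining markers of heart muscle are high, and the tissue label could not be checked that way.

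Of 12 macrophage markers, Cd163 and Lyve1 were higher at dusk (0.51 ± 0.079 and 0.47 ± 0.065, adjusted p = 0.00132 and 0.000499) and Cx3cr1 at dawn (-0.36 ± 0.092, adjusted p = 0.0424). Over all genes the shares were 1.76% and 1.47%, which also apply to the endothelial and adipocyte lists below. The Cx3cr1 call was lost without any 1 of 12 arrays (up to 0.0886), with the replicate block (0.0831) and without ZT15 replicate 1 and ZT23 replicate 4 together (0.104). The mean over the 12 lay between -0.07 and 0.21 at dusk and between -0.12 and 0.12 at dawn. Of 12 endothelial markers, Kdr was higher at dawn and Fabp4, also 1 of 9 adipocyte markers, 1.22-fold higher at dusk (adjusted p = 0.0379), and the list mean ran from -0.11 to 0.16 and from -0.15 to 0.15. The Fabp4 call was lost without any 1 of 11 arrays (up to 0.0842), with the replicate block (0.0601), with array weights (0.0523) and without the same 2 arrays together (0.1). Cldn5 and Emcn, not called at dawn here (adjusted p = 0.0545 and 0.0520), were called on leaving out any 1 of 2 arrays each, and Cldn5 with the block (0.0108). Retn of the adipocyte list was called at dawn without ZT23 replicate 1 (0.0444) and with all 24 arrays (0.0457). The part of vessel cells in the results for Kdr, Flt1, Ace and Gpihbp1 was not tested.

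Among the called genes, the 2 pairs of times gave the same direction almost throughout. Of the 715 genes, 713 had the same sign in ZT11 against ZT03 (light) and in ZT15 against ZT23 (dark). The exceptions were Marcks, at -0.55 in the light and 0.01 in the dark, and Ppp1r15a, at -0.44 and 0.02. The contrast that chose these genes is the mean of both differences, which favours a shared sign. The count of 713 is therefore no independent support, and the share over all genes is not given here. Taken alone, the light pair called 1.65% of all genes and the dark pair 1.36%. Of the 390 genes higher at dusk, 72 were called in both pairs, 72 in the light pair only, 102 in the dark pair only and 144 in neither. Of the 325 higher at dawn, 65 were called in both, 120 in the light pair only, 22 in the dark pair only and 118 in neither. Tcap had nearly equal differences in light and dark, 1.39 and 1.41, as had Slc41a3, at -1.24 and -1.28, and Epha4, at -0.92 and -0.96.

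Others had the larger estimate in the light pair, though none of them passed the test given below. The examples show that direction only. Of the genes higher at dusk, more were called in the dark pair only (102) than in the light pair only (72). For genes higher at dawn the order was reversed (22 and 120). Ciart was higher at dusk by 1.64 in the light pair and by 0.66 in the dark pair, and Timp4 by 1.1 and 0.43. The dawn gene Egr1 stood at -0.74 and -0.06, and Txnip at -1.1 and -0.16. A test of the difference between the pairs called 0 genes in limma, and 1540 had an unadjusted p below 0.05. The smallest adjusted p was 0.0528, reached by Ciart and Ppp1r15a. Among the 715 genes the unadjusted share was 21.1%, against 6.94% of all genes. Both tests divide by the same estimate of a gene's spread, so genes with a small estimate pass both more often. The higher share is therefore no independent support for unequal pairs.

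**Figure D4:**
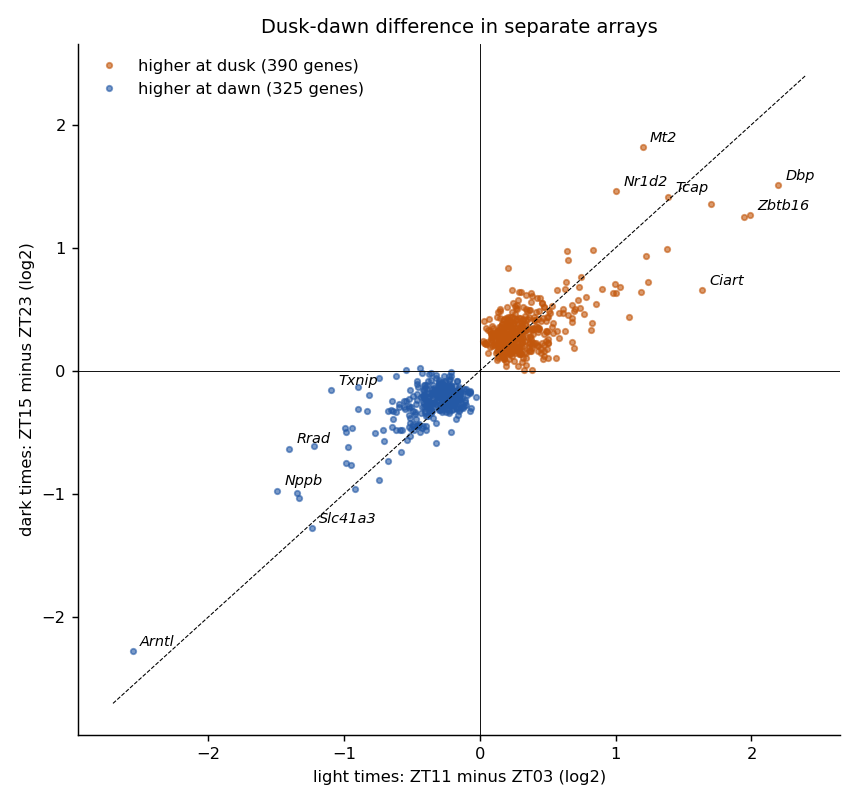
Difference of each of the 715 called genes between the light times (x axis, ZT11 minus ZT03, log2) and between the dark times (y axis, ZT15 minus ZT23, log2), on separate arrays, with a dashed line where both are equal. Orange points are higher at dusk and blue points higher at dawn, and 713 points lie in the lower left or upper right quadrant.

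Some genes differed both by side and by lighting. The contrast of the dark times ZT15 and ZT23 with the light times ZT11 and ZT03 called 230 genes (1.04%), 83 higher in the dark and 147 in the light, and 62 of these were among the 715. That count of 230 was between 118 and 151 without any 1 of ZT03 replicates 2, 3 and 4, ZT11 replicates 2, 3 and 4 and ZT23 replicate 4, and 153 without ZT23 replicate 3. Of the genes higher at dusk, 10 were also higher in the dark and 24 in the light, and of those higher at dawn, 8 and 20. Ier3 was highest at ZT15 and lowest at ZT03, with means of 0.70 ± 0.211 and -0.68 ± 0.056 (SD, n = 4), and stood at 0.11 ± 0.145 at ZT11 and 0.09 ± 0.190 at ZT23. Lyve1 and Angptl7 followed the same order of extremes, with means of 0.55 and 0.80 at ZT15 and of -0.38 and -0.26 at ZT03.

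Txnip showed the opposite placing. Its mean was 1.06 ± 0.378 at ZT03 and at most -0.04 at the 3 other times of the contrast. Nr1d2 and Tcap were lowest at ZT23, at -1.19 ± 0.105 and -1.09 ± 0.188, and highest at ZT11, at 0.69 ± 0.114 and 0.81 ± 0.027. For such genes the side is only part of the pattern. The 8 arrays of each side were also compared as 1 group, so that differences between the times of a side counted as spread. Of the 168 genes named by set rules, 20 were then no longer called, at adjusted p from 0.0516 to 0.454. They were Angptl7, Cbr2, Col15a1, Ddit3, Dnajb4, Dusp16, Egr1, Gpr22, Ier3, Insig1, Klf15, Lmod2, Lncpint, Lyve1, Plscr2, Ppm1k, Ppp1r3c, Stip1, Trim63 and Txnip. Other list members and markers given above also lost their calls, at adjusted p from 0.0533 (Reck) to 0.261 (Slc2a1). These included Adamts4, Arrdc2, Atf6, Fabp4, Gsta3, Hif3a, Pde4b and Timp2.

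Among the genes higher at dusk, the highest of the 4 means fell at ZT11 in 205 and at ZT15 in 185, and the lowest at ZT23 in 211 and at ZT03 in 179. Genes higher at dawn had their highest mean at ZT03 in 231 and at ZT23 in 94, and their lowest at ZT11 in 166 and at ZT15 in 159. Wee1, for example, was higher at ZT11 (0.62 ± 0.115) than at ZT15 (0.45 ± 0.323) by less than the spread at ZT15. The order of neighbouring times on a side was not tested gene by gene.

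The 8 arrays outside the contrast placed the called genes further. Between ZT19, in the middle of the dark, and ZT07, in the middle of the light, 1.59% of all genes differed (0.888% higher at ZT19 and 0.703% at ZT07). Of the genes higher at dusk, 21 were higher at ZT19 and 22 at ZT07, and of those higher at dawn, 23 and 17. Without single arrays of ZT07 or ZT19 the counts of dusk genes were 14 to 21 and 14 to 19, and those of dawn genes 10 (without ZT07 replicate 4) to 22 and 7 (without ZT07 replicate 3) to 15. With only those 8 arrays in the fit, the 4 counts were 16, 11, 8 and 6. For 252 of the 390 and 218 of the 325, the means at both times lay between the dusk and the dawn mean. On a scale where 0 is the dawn mean and 1 the dusk mean, the median position of the genes higher at dusk was 0.37 at ZT07 and 0.43 at ZT19, and that of the genes higher at dawn 0.45 and 0.38. The genes were chosen for dusk and dawn means that lie apart, which favours a place between them at other times. These counts and positions are therefore no independent support, and the share over all genes is not given here.

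Genes with the same side thus differed in what came next to it. Dbp, Per1, Nr1d2 and Tcap were higher at ZT07 than at ZT19, with ZT19 minus ZT07 at -1.07, -1.0, -0.99 and -1.19 (adjusted p = 1.1e-05, 0.0491, 1.88e-05 and 1.88e-05). Fmo2, Lyve1 and Angptl7 were higher at ZT19, by 0.89, 0.77 and 0.78 (adjusted p = 7.09e-05, 0.000277 and 0.00718). For Fmo2 the means were -0.57 ± 0.084 (SD, n = 4) at ZT07 and 0.32 ± 0.100 at ZT19, so that ZT07 lay below both dawn times (-0.42 and -0.17) and ZT19 below both dusk times (0.41 and 0.82). Zbtb16, Mt2 and Timp3 were not called between ZT19 and ZT07 (0.04, 0.03 and 0.11, adjusted p = 0.979, 0.985 and 0.685).

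On the dawn side, Arntl was higher at ZT19 by 0.72 (adjusted p = 0.00372), as were Nfil3 and Cdkn1a, both by 0.54 (adjusted p = 0.000484 and 0.0333). Rrad, Slc8a1 and Slc41a3 were higher at ZT07, at -0.70, -0.52 and -0.46 (adjusted p = 0.0212, 0.000954 and 0.00966). Spon2 was not called, at -0.04 (adjusted p = 0.932). Its means at ZT07 and ZT19, 0.01 and -0.03, lay near those at dusk, -0.22 and -0.15, and away from 1.12 at ZT03 and 0.88 at ZT23.

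**Figure D5:**
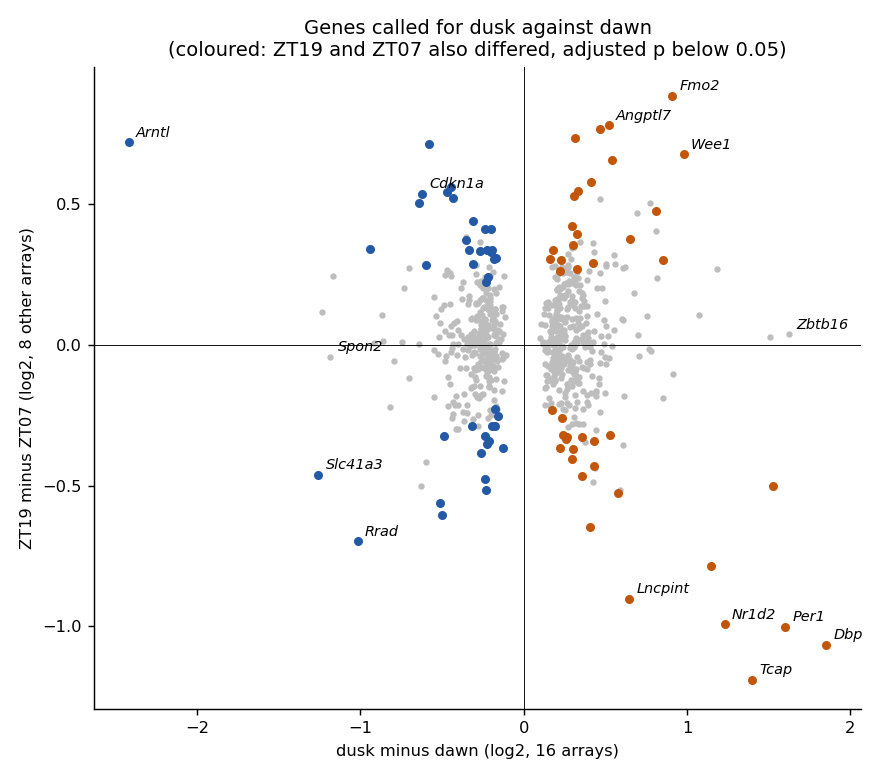
Dusk minus dawn (x axis, log2, 16 arrays) against ZT19 minus ZT07 (y axis, log2, the 8 other arrays) for the 715 called genes, with coloured points where ZT19 and ZT07 also differed at an adjusted p below 0.05 and grey points elsewhere. Dbp and Tcap lie at the lower right, Fmo2 at the upper right and Arntl at the far left, and Zbtb16 lies near 0 on the y axis.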

How the data were processed

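The authors deposited 1 value per probe set and array, read here as log2. The base is an assumption, as is the direction, that a higher value means more RNA, and each probe set's median over 24 arrays is 0 within 5e-07. How probes were summarised and normalized is, with the software, not given in the sources used here. Of 34351 probe sets, the 23521 that named 1 gene in the platform annotation were averaged to 22180 genes. Those naming several (1814) or none (9016) were left out.

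Samples were grouped by title. The 4 times were fitted as a factor over 16 arrays (12 residual degrees of freedom) and tested with limma 3.58.1 in R 4.3.3. The p-values were adjusted by the Benjamini-Hochberg method over all genes, with a threshold of 0.05. ZT19 and ZT07 were compared in a fit of all 24 arrays (18 degrees of freedom). The script was tested on simulated data. The number of arrays limits the precision (median SE 0.046 on the log2 scale).

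The comparison and the gene lists were chosen with earlier results of these data known. Genes named were all measured clock genes, the 15 largest changes each way, the 4 smallest p-values per list, and the largest changes between dark and light and between ZT19 and ZT07. Other called list members, the marker genes, Marcks and Ppp1r15a were named after their values were seen. SD over all probe sets was widest in ZT15 replicate 1 (0.171) and ZT23 replicate 4 (0.155). Promoter sequences came from RefSeq (GRCm38.p6) and covered 76.6% of genes, and figures were drawn with matplotlib. Alternatives are given in the closing section.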

Additional observations from a re-analysis of the deposited data

Results flagged for a closer look

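In 37 of 672 groups of 4 arrays, 1 array lay far from the others of its time. Chance gives about 1 in 20 such groups. Values are log2 differences from the gene's median over 24 arrays, and their part in the results was not tested beyond leaving out each array in turn.

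Among clock genes, Dbp read -0.759 in ZT03 replicate 4, against -1.17 to -1.115 in the other arrays of ZT03, and Ciart -0.127 in ZT23 replicate 4, against -0.414 to -0.38. Nr1d2 read 0.024 in ZT15 replicate 1, against 0.342 to 0.379, and Nfil3 0.224 in ZT23 replicate 3, against 0.441 to 0.455. Of the other large dusk genes, Zbtb16 read 0.39 in ZT15 replicate 4 (others 1.049 to 1.164), Mt2 -1.205 in ZT23 replicate 3 (others -0.902 to -0.847) and Timp3 -0.145 in ZT23 replicate 2 (others -0.251 to -0.242). Of the large dawn genes, Slc41a3 read 0.163 in ZT23 replicate 1 (others 0.414 to 0.453), Spon2 -0.385 in ZT11 replicate 4 (others -0.175 to -0.149), Rcan1 -0.476 in ZT15 replicate 3 (others -0.561 to -0.558), and Ankrd23 and Tfrc 0.819 and 0.663 in ZT03 replicate 2 (others at most 0.439 and 0.47).

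ZT11 replicate 3 stood apart for the interferon-induced genes Cxcl9 (0.995, others 0.189 to 0.297) and Gbp3 (0.746, others 0.05 to 0.151), and also for Dusp7 (0.141) and Ndufc2 (-0.202). In ZT15 replicate 3, Cdkn1a read 0.201 (others -0.45 to -0.35) and Ace 0.546. ZT15 replicate 1 read -0.587 for Ppargc1a (others -0.147 to -0.081) and -0.528 for Tbc1d4. ZT23 replicate 4 read 0.377 for Ier3 (others -0.028 to 0.026) and -0.22 for Lmod3, and ZT23 replicate 3 read 0.131 for Slc8a1 and 0.004 for Idh2.

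ZT03 replicate 4 read 0.652 for Lncpint (others -0.116 to 0.012). ZT03 replicate 3 read 0.227 for Klf15, -0.548 for Dusp7 and -0.217 for Cbr2, and ZT03 replicate 1 read -0.295 for Foxo3 and 0.033 for Pfkfb2. At ZT11, replicate 1 read -0.228 for Kcnq1 and -0.295 for Mmp14, replicate 2 read -0.159 for Ppargc1a, and replicate 4 read 0.133 for Ppara. At ZT15, replicate 2 read -0.252 for Hspa5 and 0.118 for Mpc1, and replicate 4 read -0.033 for Gpihbp1.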

How the results depend on the processing

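The counts of genes higher at dusk and at dawn stayed within 1.5 times of 390 and 325 under every alternative but 1. A call past a 1.2-fold difference left 35 and 24 genes. Leaving out single arrays gave 319 to 447 at dusk (fewest without ZT11 replicate 4) and 259 to 377 at dawn (fewest without ZT03 replicate 2), and leaving out both arrays of widest spread gave 350 and 306. With all 24 arrays in the fit, 660 of the 715 genes were called again. The genes differing between dark and light numbered 118 (without ZT11 replicate 3) to 339 (without ZT11 replicate 1) without single arrays. Genes whose difference was unequal in light and dark numbered 2 after quantile normalization, 2 with scaled arrays, 3 among protein-coding genes, and 0 to 2 without single arrays. Between ZT19 and ZT07, 178 genes differed with only those 8 arrays in the fit, 231 without ZT07 replicate 4 and ZT15 replicate 1, and 168 (without ZT07 replicate 4) to 279 without single arrays. Apart from settings with fewer arrays or genes in the fit, the cause was not tested.

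Replicate numbers did not pair the arrays. Same-numbered arrays of different times correlated at -0.20 to 0.23 in their deviations from the group means, and 5 of 16 arrays correlated best with their own number. With the replicate block, 357 genes were higher at dusk, 290 at dawn and 142 differed between dark and light.

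Of 168 named genes, 110 were called, 36 of them under every alternative, and 0 reversed. Most of the other 74 were lost past 1.2-fold only. Signal over background is unknown for centred values, so no filter on dim genes could be tried.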
